A study of Homo sapiens with 6 samples.

Results

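The anterior HOX genes are the 3′ members of the HOX clusters, paralogue groups 1 to 4. The members described here were the 8 protein-coding genes HOXA2, HOXA3, HOXA4, HOXB1, HOXB2, HOXB3, HOXB4 and HOXD1 and the long noncoding RNA HOTAIRM1, chosen by symbol, and together they made up 9 of the 27672 genes in the table. RNA-seq of polyadenylated RNA was carried out in 3 replicates of undifferentiated hESCs of the H9 line, an established human embryonic stem cell line, at day 0, and in 3 replicates of NMP-L cells, the cells like neuromesodermal progenitors made from them, at day 3. Per the labels, hESCs were grown without other treatment on fibronectin in a defined medium to which Noggin (10 ng/ml) and bFGF (30 ng/ml) had been added. NMP-L cells were kept in a medium with N2 and B27 and received CHIR99021 (3 µM), a GSK3 inhibitor that activates Wnt signalling, beside bFGF at 20 ng/ml. The study's methods name another hESC medium and substrate, and add Noggin and a TGF-beta receptor inhibitor for part of the differentiation. All libraries came from 1 line, and those of both states are marked WT, for wild type. The effects of the basal medium and of the added factors cannot be told apart.

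HOX genes encode homeodomain transcription factors that give cells their position along the head to tail axis. Within a cluster they are activated in order, from the 3′ genes, which act in the hindbrain, towards the 5′ genes, which act in the trunk and tail. Wnt and FGF signals, caudal (CDX) factors and retinoic acid are known to turn them on, polycomb complexes keep them silent in pluripotent cells, and their proteins bind DNA with TALE partners of the PBX and MEIS families. HOTAIRM1 is transcribed from the 3′ end of the HOXA cluster, on the strand opposite to the HOXA genes, and is known for its induction by retinoic acid.

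The letters upstream of a pair of these genes show where HOX and PBX proteins could bind together. The motif TGATNNAT, the core of a PBX-HOX site, was searched on both strands of the 250 bases before each listed start in RefSeq (GRCh38.p14), and its matches are in capitals. The promoter table matched 5 of the 9 members (HOXA2, HOXA3, HOXA4, HOXB1 and HOXD1) with 11 windows. The motif was in 2 of these 11 windows and in 6.47% of all 35116 windows. Most of the 11 windows belong to different starts of 1 gene, HOXA3, and none of those held the motif. HOXA2, a regulator of hindbrain and second-arch identity, has its window at chr7:27102684-27102933, minus strand, and HOXB1, which specifies a single hindbrain segment, at chr17:48531012-48531261, minus strand.
HOXA2: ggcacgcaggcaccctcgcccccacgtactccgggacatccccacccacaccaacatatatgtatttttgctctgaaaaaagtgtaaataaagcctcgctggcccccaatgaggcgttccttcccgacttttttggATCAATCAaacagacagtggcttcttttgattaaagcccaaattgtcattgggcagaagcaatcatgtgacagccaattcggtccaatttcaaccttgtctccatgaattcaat
HOXB1: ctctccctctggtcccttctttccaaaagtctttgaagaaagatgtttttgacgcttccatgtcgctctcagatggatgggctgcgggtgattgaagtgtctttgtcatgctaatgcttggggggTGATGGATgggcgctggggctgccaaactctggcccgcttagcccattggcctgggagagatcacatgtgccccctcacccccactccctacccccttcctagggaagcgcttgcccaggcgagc
The CDX motif TTTATG was in 1 of the 11 windows, at a HOXA3 start, and in 9.64% of all windows. The TCF/LEF motif CTTTGAT was in 0 of the 11 and 2.26% of all. A match describes letters and not a bound site.

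The smallest library held 19454543 expected counts and the largest 23036426. Detection was set at a floor of 3 counts, which corresponded to between 0.130 and 0.154 CPM, the count scaled to the library total. Of the 6 undifferentiated-state markers all 6 fell, with summed levels of 5421 to 5701 TPM, the level scaled by transcript length, in hESCs and 2797 to 2938 in NMP-L cells. Of the 5 tested NMP markers 4 rose (T, CDX2, NKX1-2 and SP5), and the list's sums were 216 to 241 TPM and 331 to 426 TPM. Most of these sums came from SOX2, at 208 to 235 TPM in hESCs and 222 to 278 TPM in NMP-L cells. SOX2 missed the threshold (log2 fold change 0.06, adjusted p = 0.53 by edgeR). For these and the later marker lists, the shares over all genes tested were 29.1% higher and 26.7% lower in NMP-L cells. Those shares depended on the scaling, and calls of single markers under other scalings are not given. FGF8, the NMP marker not tested, was lower in NMP-L cells, with 4, 11 and 7 counts in hESCs and 3, 2 and 1 in NMP-L cells. It was at or under the floor in every NMP-L library. In these bulk samples a change in the number of cells of a type and a change in RNA per cell cannot be told apart.

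HOTAIRM1 was the member that rose. In hESCs its counts were 1, 1 and 0, and NMP-L replicates 1 to 3 held 30, 14 and 39. All NMP-L libraries lay above all hESC libraries, as for 30.2% of genes with at least 1 count, and none of the hESC libraries was above the floor. The level in NMP-L cells was 1.25 ± 0.520 CPM (SD, n = 3), or 2.78 ± 1.19 TPM, which is above that of 55.1% of all genes in the table. Set against the floor, the rise was at least 8.17-fold, and this bound lay between 6.72 and 10.0 when each library was left out in turn. The fitted log2 fold change was 4.91 (SE 0.66, adjusted p = 7.34e-05, edgeR quasi-likelihood test with Benjamini-Hochberg adjustment), a value that depends on the prior count and is no bound. Of all genes tested, 55.8% passed the same threshold, 29.1% as higher and 26.7% as lower in NMP-L cells. This split of 4512 higher and 4141 lower genes depended on the scaling: it was 10027 and 1428 relative to GAPDH counts, and 1793 and 5294 relative to HPRT1 counts, and HOTAIRM1 was higher under both. Every NMP-L library above 3 counts with no hESC library above them was a pattern shown by 0.893% of genes, and 60.1% of genes were above 3 counts in every library of at least 1 state, against 2 of the 9 members (HOTAIRM1 and HOXB2). An exact two-sided permutation test gave p = 0.1, the smallest that 3 against 3 libraries allow.

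**Figure D1:**
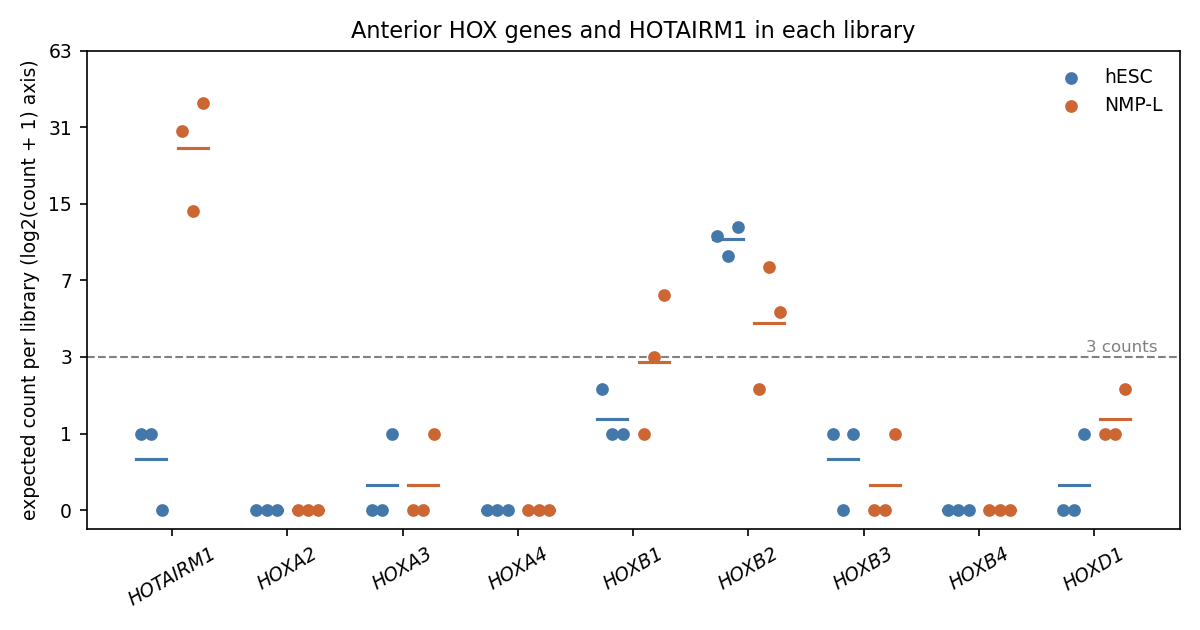
Expected counts of the 9 members in each library, on a log2(count + 1) axis, with hESC libraries in blue, NMP-L libraries in orange, horizontal bars at the mean of the log values and a dashed line at 3 counts. HOTAIRM1 sits at 14 to 39 counts in NMP-L cells and at 0 or 1 in hESCs, while HOXB2 lies at 9 to 12 in hESCs and 2 to 8 in NMP-L cells.

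The NMP-L libraries differed in how much HOTAIRM1 they held, and replicate 2 was the lowest. Of all genes tested, 30.5% were lowest in that library among the NMP-L libraries. Of 4 caudal genes, replicate 2 was lowest for T, CDX2 and CDX1 but not for CDX4. T, the brachyury factor of the primitive streak and NMPs, had 24.7, 14.2 and 27.3 CPM, and CDX2, a caudal factor that acts on HOX genes, had 24.0, 15.8 and 26.3 CPM. CDX1, its paralogue, had 14.4, 9.76 and 13.9 CPM, where HOTAIRM1 had 1.38, 0.677 and 1.69. CDX4, the other CDX gene, had 2.02, 1.64 and 1.35 CPM and was lowest in replicate 3. These genes were set beside HOTAIRM1 after their values were seen. HOTAIRM1 counts came to 5.75%, 4.29% and 6.43% of the CDX2 counts in these libraries. Markers of other cell types also moved between the states. Of 2 endoderm markers tested 1, FOXA2, rose, and the list's sum was 2.33 to 3.55 TPM in hESCs and 14.5 to 26.6 TPM in NMP-L cells with SOX17 at or under the floor in every NMP-L library. FOXA2 had mean CPM values of 0.118 (hESC) and 19.2 (NMP-L), and no other marker of that list had a mean above 2.57 CPM in NMP-L cells. CXCR4, which had that mean, missed the threshold (adjusted p = 0.171 by edgeR). Of 4 neural and hindbrain markers tested 1 rose (SOX1) and 2 fell, with sums of 7.37 to 8.33 and 9.56 to 10.97 TPM and PAX6 and NEUROG2 at or under the floor in NMP-L cells. Paraxial mesoderm, neural crest and blood or endothelial sums were lower in NMP-L cells, at 6.38 to 8.56 against 14.4 to 18.1, 4.06 to 4.88 against 25.03 to 29.6 and 36.3 to 42.7 against 131 to 142 TPM. Single markers of these lists moved the other way: SNAI2 of the neural crest list rose (log2 fold change 2.34, adjusted p = 0.00178 by edgeR), and RUNX1 of the blood list rose (log2 fold change 3.08, adjusted p = 1.93e-06 by edgeR). Of 3 paraxial mesoderm markers tested 0 rose and 2 fell (TBX6 and TCF15). MSGN1 and MESP1 of that list did not pass the filter, and their counts were higher in NMP-L cells. MSGN1 had 0, 0 and 0 counts in hESCs and 7, 4 and 2 in NMP-L cells. MESP1 had 1, 0 and 4 counts in hESCs and 6, 8 and 5 in NMP-L cells. Most of the blood or endothelial sum came from KDR, with mean CPM values of 396 (hESC) and 108 (NMP-L). The part of these markers in the rise of HOTAIRM1 was not tested.

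**Figure D2:**
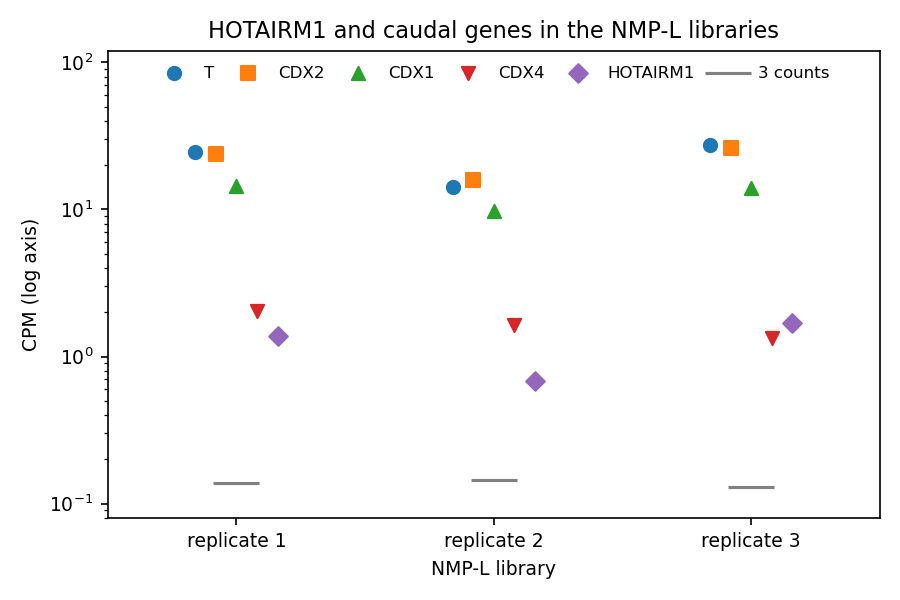
Levels of T, CDX2, CDX1, CDX4 and HOTAIRM1 in the 3 NMP-L libraries in CPM on a log axis, 1 point per library, with grey bars at the level of 3 counts. T, CDX2, CDX1 and HOTAIRM1 are lowest in replicate 2 and CDX4 in replicate 3, and HOTAIRM1 lies above the floor in each library.

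HOTAIRM1 (ENSG00000233429, a long noncoding RNA with 6 annotated transcripts) lies on chromosome 7 from 27135266 to 27139884, plus strand, in GENCODE on GRCh37, the assembly also called hg19. It ends 88 bases from the 3′ end of HOXA2, which lies on the minus strand and had 0 counts in all 6 libraries. Only 26 of its 1496 exonic bases are shared with a gene on the opposite strand. The strand setting of the counting is not stated, so reads from overlapping genes on opposite strands cannot be told apart. The genes with the pattern most like it over the 6 libraries, by Euclidean distance between centred log2(CPM + 0.1) values, were ENKUR at 0.434, FLRT3 at 0.447 and MAP6 at 0.687. ENKUR had 1, 2 and 0 counts in hESCs and 37, 18 and 53 in NMP-L cells, a likeness that the choice of the gene fixes.

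HOXB2 ran in the other direction. This paralogue group 2 gene acts in hindbrain segments and was the sole member above the floor in every hESC library, a state that 57.2% of all genes shared. Its counts were 11, 9 and 12 in hESCs and 2, 8 and 5 in NMP-L cells. All NMP-L libraries lay under all hESC libraries, as for 21.6% of genes with at least 1 count, while 30.2% of those genes lay above. Its hESC level of 0.544 ± 0.0797 CPM compared with an NMP-L level of 0.232 ± 0.148 CPM (SD, n = 3), a ratio of mean CPM of 0.426. The summed counts, 32 and 15, gave a ratio of 0.421 after scaling by library totals, with an exact 95% interval of 0.212 to 0.801 that covers counting error only. HOXB2 did not pass the filter on low counts. Fitted with no filter, its log2 fold change was -1.29 (SE 0.53, adjusted p = 0.0585 by edgeR), which missed the threshold that 43.3% of genes passed in that fit, 22.7% as higher and 20.5% as lower in NMP-L cells. Its adjusted p lay between 0.0154 and 0.257 over 18 settings, and it passed in 3 of them. Without NMP-L replicate 2, the NMP-L library with the most HOXB2, the log2 fold change was -1.84 (adjusted p = 0.0154 by edgeR with the filter and 0.0248 without it). Without NMP-L replicate 1, the library with the least, it was -0.92 (adjusted p = 0.131 by edgeR with the filter and 0.207 without it). Of its 2456 exonic bases, 87 are shared with a gene on the opposite strand, and the neighbouring antisense gene HOXB-AS1 had 2, 1 and 1 counts in hESCs and 1, 0 and 1 in NMP-L cells.

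HOXB1, a paralogue group 1 gene and an early responder to retinoic acid in the embryo, stayed close to the floor. It had 2, 1 and 1 counts in hESCs and 1, 3 and 6 in NMP-L cells, so that 1 NMP-L library was above the floor and the states overlapped. The log2 fold change without a filter was 1.03 (SE 0.93, adjusted p = 0.405 by edgeR), and it passed the threshold in 0 of 14 settings. The exact permutation p was 0.4. A change in HOXB1 was not detectable at this depth.

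The other 6 members were at or under 3 counts in all 6 libraries, which was the case for 34.5% of all genes. HOXA2, HOXA4 and HOXB4 had 0 counts throughout, so each library allows at most 3 counts of them, a level of 0.154 CPM or less. HOXA3, a regulator of pharyngeal arch development, had 1 count in hESC replicate 3 and 1 in NMP-L replicate 3. HOXB3 had 1, 0 and 1 counts in hESCs and 0, 0 and 1 in NMP-L cells. HOXD1 had 0, 0 and 1 counts in hESCs and 1, 1 and 2 in NMP-L cells. No fold is given for these genes. HOXD1 shares 1134 of its 1886 exonic bases with a gene on the opposite strand. On the same strand, HOXA3 shares 674 of its 4308 exonic bases with other genes and HOXA4 541 of 1728. HOXB3 shares 477 of 7425 and HOXB4 44 of 2002. None of the 9 members had a fractional count, which RSEM gives where reads are divided between genes. Most members had too few counts for this to show whether reads were shared.

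By level per length, HOTAIRM1 stood first in NMP-L cells, at 1.47 to 3.81 TPM, above HOXB1 at 0.343 ± 0.256 and HOXB2 at 0.32 ± 0.205 TPM (SD, n = 3). The libraries of HOXB1 and HOXB2 overlapped, so those neighbours in the order did not differ beyond their spread. HOXD1 followed at 0.0667 TPM. In hESCs HOXB2 stood first at 0.74 ± 0.123 TPM, ahead of HOXB1 at 0.153 and HOTAIRM1 at 0.103 TPM, whose libraries overlapped. Of all counts on the members, HOTAIRM1 held 88.2%, 53.8% and 72.2% in the NMP-L libraries and between 0% and 9.09% in the hESC libraries. The 8 protein-coding members summed to 14, 10 and 16 counts in hESCs and 4, 12 and 15 in NMP-L cells.

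In the rest of the HOX clusters, 29 of 31 HOX genes outside the members had no library above the floor, as for 34.5% of all genes. The other 2 were above it in every NMP-L library, where 58.2% of all genes were. One of these was HOXA7, a trunk gene of the same cluster as HOTAIRM1, with 2, 1 and 0 counts in hESCs and 11, 4 and 4 in NMP-L cells. Against the floor the rise of HOXA7 was at least 1.9-fold, and at least 1.20-fold without NMP-L replicate 1. Of 14 HOX antisense and other long noncoding RNAs, 13 had at most 3 counts in any library, against 34.5% of all genes. None of the 14 was above that in every library of a state, where 60.1% of all genes were.

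The TALE genes, whose proteins bind DNA with HOX proteins, changed in both directions. Of 7 tested, 2 rose and 4 fell, with a median log2 fold change of -0.39 against 0.03 over all genes tested, of which 29.1% rose and 26.7% fell. With no filter 3 rose and 3 fell of 9 tested. Relative to GAPDH counts 3 rose and 0 fell, and relative to HPRT1 counts 2 rose and 5 fell. PKNOX2 had 25, 49 and 55 counts in hESCs and 387, 277 and 352 in NMP-L cells (log2 fold change 2.75, SE 0.22), and PBX3 rose by 0.82. MEIS3 fell by 0.83 on the log2 scale, but relative to GAPDH counts its value was -0.27 and missed the threshold. MEIS1, with 1 to 5 counts per library, and MEIS2, with 2 counts in each hESC library and 10, 11 and 23 in NMP-L cells, did not pass the filter. With no filter MEIS2 rose (log2 fold change 2.57, adjusted p = 0.00174 by edgeR), while MEIS1 had a log2 fold change of 0.62 and did not pass (adjusted p = 0.55).

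Among caudal, retinoid and hindbrain regulators of HOX genes, 10 of 20 tested rose and 6 fell, with a median log2 fold change of 0.25, a share of called genes to be read against the 55.8% of all genes tested. The numbers were 13 and 5 relative to GAPDH counts and 6 and 6 relative to HPRT1 counts. CDX2 had 0, 1 and 0 counts in hESCs and 522, 326 and 607 in NMP-L cells, at least 144-fold higher against the floor. This bound was 203-fold relative to GAPDH counts and 111-fold relative to HPRT1 counts. It lay between 130-fold and 165-fold when each library was left out. CDX1 rose from 0, 0 and 4 to 312, 202 and 321 counts (log2 fold change 7.35, SE 0.44). CYP26A1, which breaks down retinoic acid, had 315, 267 and 345 counts in hESCs and 12, 6 and 3 in NMP-L cells, and fell by 5.67 on the log2 scale. DHRS3, which lowers retinaldehyde, fell by 2.11. ALDH1A2, which makes retinoic acid and was chosen after its values were seen, rose from 1, 5 and 1 to 131, 101 and 165 counts (log2 fold change 5.52, SE 0.38). Its paralogue ALDH1A1, of the same list, fell from 26, 30 and 32 to 8, 11 and 6 counts (log2 fold change -2.02, SE 0.32). ALDH1A3, also of the list, had a log2 fold change of 0.02 and missed the threshold.

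Of 14 chromatin regulators, all of them tested, 4 rose and 4 fell, with a median log2 fold change of -0.11, and these counts are near the shares of 29.1% and 26.7% over all genes tested. Relative to GAPDH counts 9 rose and 1 fell, and relative to HPRT1 counts 1 rose and 7 fell. JARID2, a partner of polycomb repressive complex 2, had 22567, 20644 and 23594 counts in hESCs and 6863, 6352 and 6849 in NMP-L cells, and fell by 1.96. BMI1, a subunit of polycomb repressive complex 1, rose by 1.63. KDM6B, an H3K27 demethylase, rose by 0.76, a value of 0.46 that missed the threshold relative to HPRT1 counts (adjusted p = 0.0589 by edgeR). KMT2B, an H3K4 methyltransferase, fell by 0.55, and relative to GAPDH counts its value was 0.01.

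Genes within 250 kb of the HOXA, HOXB and HOXD clusters that are not HOX genes were read beside the members. Of 10 tested, 4 rose and 1 fell, with a median log2 fold change of 0.17, and the 5 called of 10 lie near the 55.8% called of all genes tested. Scaling to GAPDH counts gave 8 higher and 0 lower, and scaling to HPRT1 counts 2 higher and 3 lower. EVX1, the homeobox gene beside the 5′ end of the HOXA cluster, had 0 counts in every hESC library and 65, 43 and 71 in NMP-L cells. Against the floor it was at least 17.8-fold higher, or 24.9-fold relative to GAPDH counts and 13.7-fold relative to HPRT1 counts. The bound lay between 16.6-fold and 19.8-fold when each library was left out. SKAP2, beyond the 3′ end of the same cluster, had 144, 102 and 138 counts and 463, 444 and 597 (log2 fold change 1.73, SE 0.15). SNF8, near the HOXB cluster, fell by 0.33, and relative to GAPDH counts its value was 0.22.

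**Figure D3:**
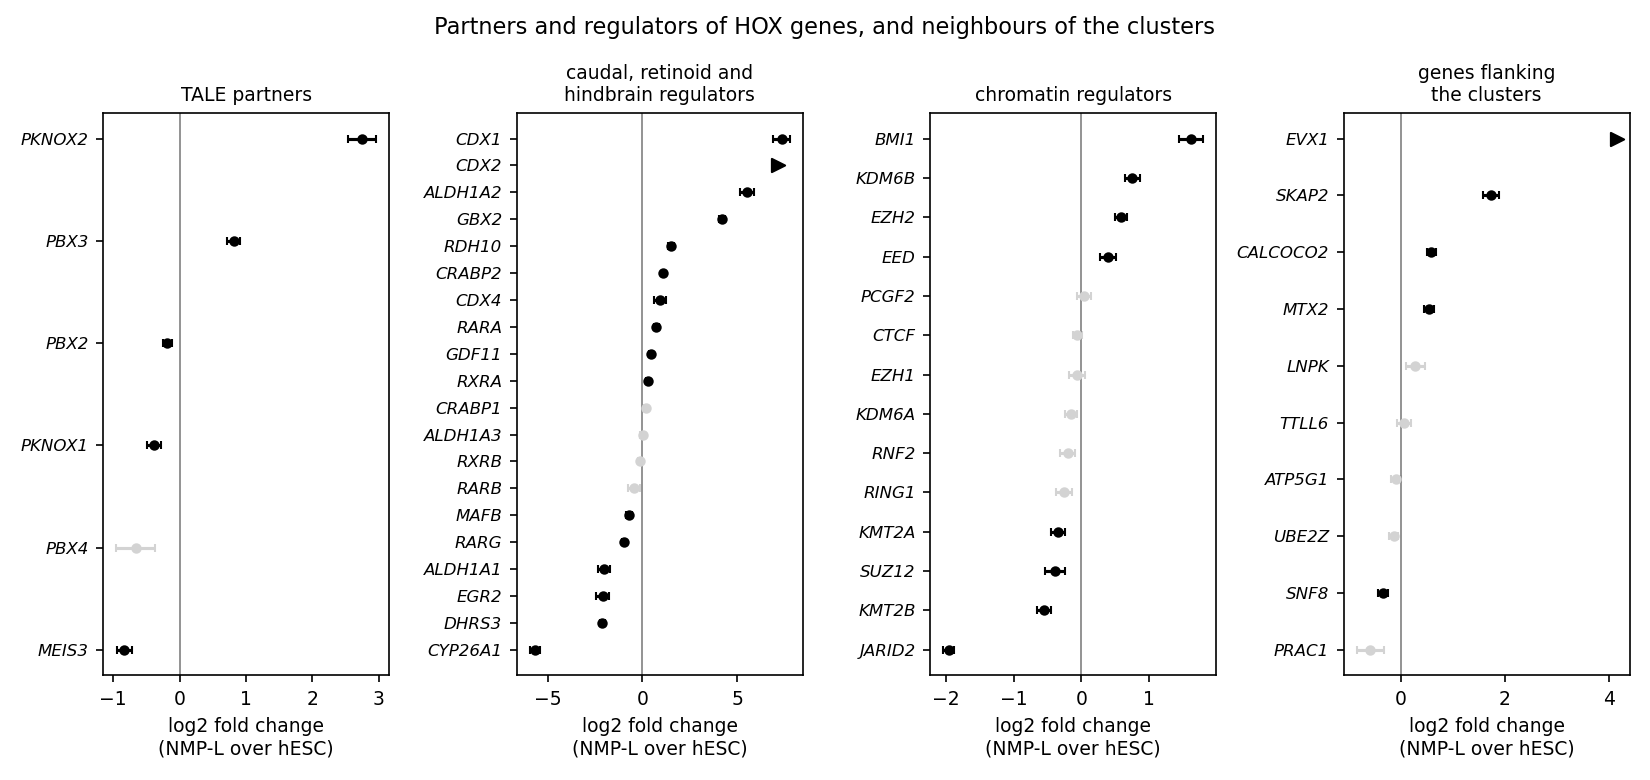
Log2 fold changes (NMP-L over hESC) of tested genes of 4 lists (those whose single values are reported), with bars of 1 standard error, black where the adjusted p was under 0.05 and grey otherwise, and triangles for lower bounds against 3 counts (CDX2 and EVX1). The x axes differ between panels. CDX1 lies at 7.35 and CYP26A1 at -5.67, and the bounds of CDX2 and EVX1 cannot be ranked against fitted values.

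The direction of HOTAIRM1 and HOXB2 was then compared over all settings. HOTAIRM1 was positive and past the threshold in 28 of 28 settings in which it was tested, with log2 fold changes of 4.39 to 5.44. HOXB2 was negative in 18 of 18, from -1.84 to -0.74. HOXB1 was positive in 14 of 14, from 0.38 to 1.56, and past the threshold in 0. All settings refit the same 6 libraries or subsets of them, so a shared sign adds no independent support for a direction.

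**Figure D4:**
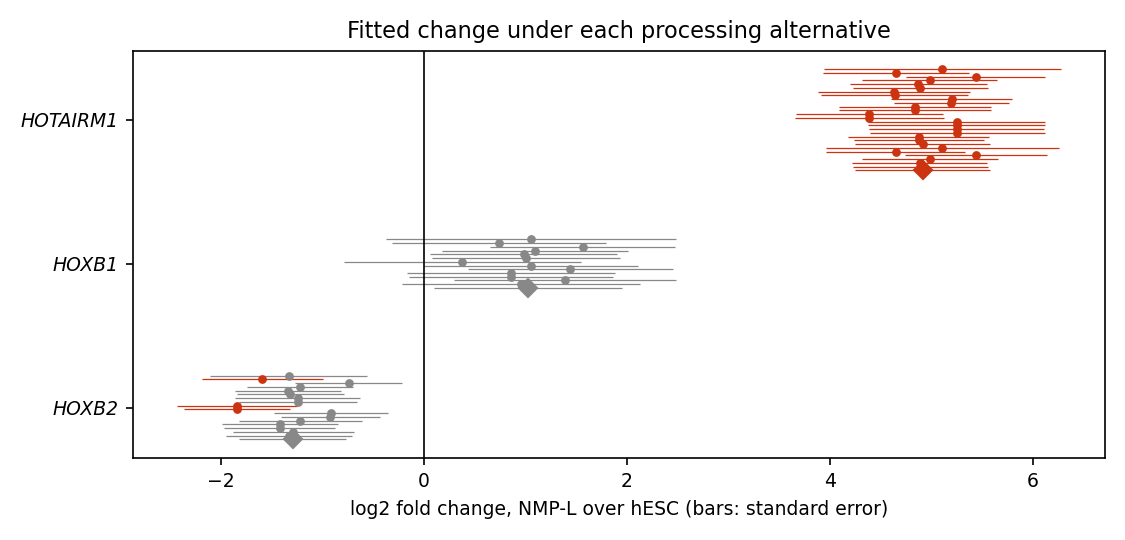
Fitted log2 fold changes with bars of 1 standard error for HOTAIRM1, HOXB1 and HOXB2 in every setting in which each was tested, with diamonds for the value reported, circles for alternatives, and red where the adjusted p was under 0.05. HOTAIRM1 is red in all 28 settings, HOXB2 in 3 of 18 and HOXB1 in 0 of 14.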

How the data were processed

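Polyadenylated RNA was sequenced from 3 hESC and 3 NMP-L libraries. The authors deposited RSEM expected counts and TPM per gene in 1 table; the submitters' processing notes name cutadapt 1.9.1, STAR 2.5.2a, RSEM 1.3.0, DESeq2 1.12.3 and hg19, without their settings. The strand setting and annotation are not given in the sources used here. Depth was 19454543 to 23036426 expected counts per library.

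Expected counts were rounded and tested with edgeR 4.0.16 in R 4.3.3 (filterByExpr with a minimum count of 10, TMM, glmQLFit and glmQLFTest, condition as the only term, Benjamini-Hochberg adjustment over all 15517 genes tested, threshold 0.05). The standard error is the log2 fold change divided by the square root of F. The floor was 3 counts per library. Lower bounds divide the mean NMP-L CPM by the mean CPM of 3 counts in the hESC libraries. Permutation tests were exact and two-sided, on log2(CPM + 0.1). Nothing in the labels beyond the words biological replicate says how cultures were separated, so p-values measure the spread between these samples. Alternatives were other scalings, other filters, DESeq2 1.42.0, a replicate block and leaving out each library. The edgeR and DESeq2 fits were tested on simulated data. Changes were simulated only in genes with a higher mean level than any member, so that test does not cover counts as low as theirs.

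The text names the 9 members; other HOX genes and HOX noncoding RNAs above the floor in every library of a state; the 2 largest rises and falls past the threshold in each other list; and the 3 genes nearest in pattern. Single values of some genes that this rule names are not reported here; they stay in all fits and counts. Markers and HOXB-AS1, MEIS1, MEIS2, CDX4, ALDH1A1, ALDH1A2 and ALDH1A3 fall outside the rule. The members and lists were chosen with earlier results of these data known. Positions come from GENCODE 44 on GRCh37 and promoter windows from RefSeq on GRCh38.p14.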

Additional observations from a re-analysis of the deposited data

How the results depend on the processing

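Of the 9 members 1, HOTAIRM1, passed the filter on low counts, through its NMP-L counts, and it passed the threshold, as 55.8% of all genes tested did. The number past the threshold was 0 with at least 10 counts required in every library, where HOTAIRM1 could not be tested, and 2 relative to HPRT1 counts with no filter; it lay between 1 and 2 when each library was left out, the higher value without NMP-L replicate 2, where HOXB2 passed. These HPRT1 fits with no filter were chosen after seeing the data. The number of members above the floor in every library of a state, 2, was 1 with a floor of 10 counts. Outside the members, 1 HOX gene passed, against 0 with at least 10 counts in every library and 2 with no filter, where HOXA7 had an adjusted p of 0.0491 by edgeR. With the replicate block and no filter, the number of HOX genes outside the members that passed was again 1. Of the TALE genes 6 passed, and 3 relative to GAPDH counts; of the regulators 16, and 10 with at least 10 counts in every library; of the flanking genes 5, and 8 relative to GAPDH counts. Scaling to GAPDH moved the median log2 fold change of all genes from 0.03 to 0.59, scaling to HPRT1 to -0.27 and scaling by library size alone to 0.10. The bound for HOTAIRM1 was 11.6-fold relative to GAPDH and 6.24-fold relative to HPRT1.

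The labels give both states the same replicate numbers, but deviations of same-numbered libraries correlated at -0.37, -0.06 and -0.13, so the numbers were not taken as pairs. With the replicate block 7560 genes passed, against 8653 without it, and 1 member, HOTAIRM1, passed in both fits. Members at 0 to 3 counts are limited by depth, and no fold was drawn from them.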
